A study of Mus musculus with 6 samples.

Results

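The genes described here encode 10 matricellular proteins of the mouse: Sparc and Sparcl1 of the SPARC family, Smoc1 and Smoc2 of the same family's modular branch, Spp1 (osteopontin) and Dmp1 of the SIBLING family, the thrombospondins Thbs1 and Thbs2, the tenascin Tnc, and Postn (periostin). They were taken by symbol from a table of 23366 genes, which lists all 10, and all 10 were among the 12820 genes whose normalized counts averaged 10 or more and that were tested. The set was chosen by the measured differences of Dmp1 and Sparc, which were lower after YAP knockdown in these libraries. The differences of the 10 genes between the groups are therefore given as a description with no test. Tests are given only for other genes, which act with these proteins or neighbour some of the 10 genes on the chromosome.

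RNA was sequenced from SC4 cells, a single mouse Schwann cell line that came from a schwannoma lacking Nf2, which encodes the tumour suppressor merlin. One group of 3 libraries came from SC4 cells transfected with a pool of siRNAs against YAP, and the other 3 from SC4 cells transfected with a control siRNA. Both groups were Nf2-null and were harvested 48 hours after transfection. The labels do not say whether replicates 1 to 3 were separate cultures. The p-values below therefore reflect only spread among libraries, possibly of technical origin. Where the replicate number is in the model, that is the spread among differences of same-numbered libraries.

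Matricellular proteins are secreted into the extracellular matrix, where they act less as scaffold than as modulators of how cells hold and sense it. SPARC binds collagens and calcium and counteracts cell spreading. SIBLING proteins are acidic phosphoproteins that bind integrins and mineral, and their genes lie side by side on a single chromosome. Thrombospondins, tenascins and periostin bind integrins, collagens and fibronectin and are made in developing and injured nerve as well as in tumours.

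Recovered reads in genes numbered 18025132 to 26984156 in the YAP siRNA libraries and 18821938 to 60078880 in the control siRNA libraries. Yap1, the target of the pool, had normalized counts of 936, 571 and 475 in YAP siRNA replicates 1, 2 and 3, against 4749.6, 5732 and 4751 in control siRNA replicates 1, 2 and 3. Replicate 1 of both groups stood apart from replicates 2 and 3 along a first principal component that held 63.5% of the variance, whereas the second, with 23.1%, separated the siRNAs. Among Schwann cell and neural crest markers, Mbp, Pmp22, Ngfr and Egr2 had a mean normalized count of at least 10, while Sox10, S100b and Mal were under it. Of the macrophage markers 4 of 8 reached a mean of 10, and they summed to 215 to 264 in YAP siRNA and 285 to 343 in control siRNA libraries, with Cd14 at 0 throughout. Smooth muscle and pericyte markers, of which 2 of 7 reached that mean and Abcc9 and Kcnj8 were at 0, summed to 8617 to 9517 in YAP siRNA and 9965 to 15430.0 in control siRNA libraries. Both sums were lower in every YAP siRNA library than in any control siRNA library. Cspg4 made up nearly all of the smooth muscle sum (8577 to 9374 in YAP siRNA, 9930.0 to 15370.0 in control siRNA), whereas Des was higher in YAP siRNA in each pair. Among the macrophage markers Csf1r was lower (62.6 to 84.4 in YAP siRNA, 120 to 196 in control siRNA), and Cd68, Ptprc and Aif1 overlapped. Cd68 was lower in YAP siRNA in the pairs of replicates 1 (124 against 164) and 2, and higher in the pair of replicate 3. Sums of fibroblast (6 of 8 genes at that mean), osteoblast (3 of 9) and endothelial markers (4 of 7) overlapped between the groups, and Bglap2 and Emcn were at 0. The osteoblast sum was nearly all Runx2, and its other members at that mean, Phex and Alpl, were lower in YAP siRNA in each pair. The part of these markers in the results was not tested, and in such bulk RNA fewer cells of a type and less RNA per cell cannot be told apart.

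Because replicate 1 stood apart, 2 fits were made across all 12820 genes with limma on log2(normalized count + 1). Without the replicate number in the model, limma called 0% of genes lower and 0% higher at an adjusted p under 0.05 (1558 genes, or 12.2%, had an unadjusted p under 0.05, edgeR called 0, and DESeq2 called 3.11% lower and 2.57% higher). Replicate 1 of both groups shifted together, away from replicates 2 and 3, and adding the replicate number as a block led limma to call 8.96% of genes lower and 8.32% higher. The same block gave 10.1% lower and 9.28% higher in edgeR and 10.2% lower and 9.22% higher in DESeq2. The limma fit without the replicate number had been planned as the main one. Below, "called", "rose" and "fell" refer instead to the limma fit with the block. Its calls were 0.14% lower and 0.0936% higher when limma was run without a mean-variance trend, and 21.8% and 21.9% without replicate 1 of both groups.

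Spp1, Dmp1, Sparc and Sparcl1 were lower in YAP siRNA than in control siRNA in all 3 same-numbered pairs, Thbs2, Postn, Smoc2 and Tnc were higher in all 3, and Thbs1 and Smoc1 were mixed. Of all tested genes, 27.1% were lower and 27.4% higher in all 3 pairs. Since this contrast chose the set, nothing is read from those counts. The median log2 difference of the 10 was −0.34, against 0.0094 over all tested genes.

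**Figure D1:**
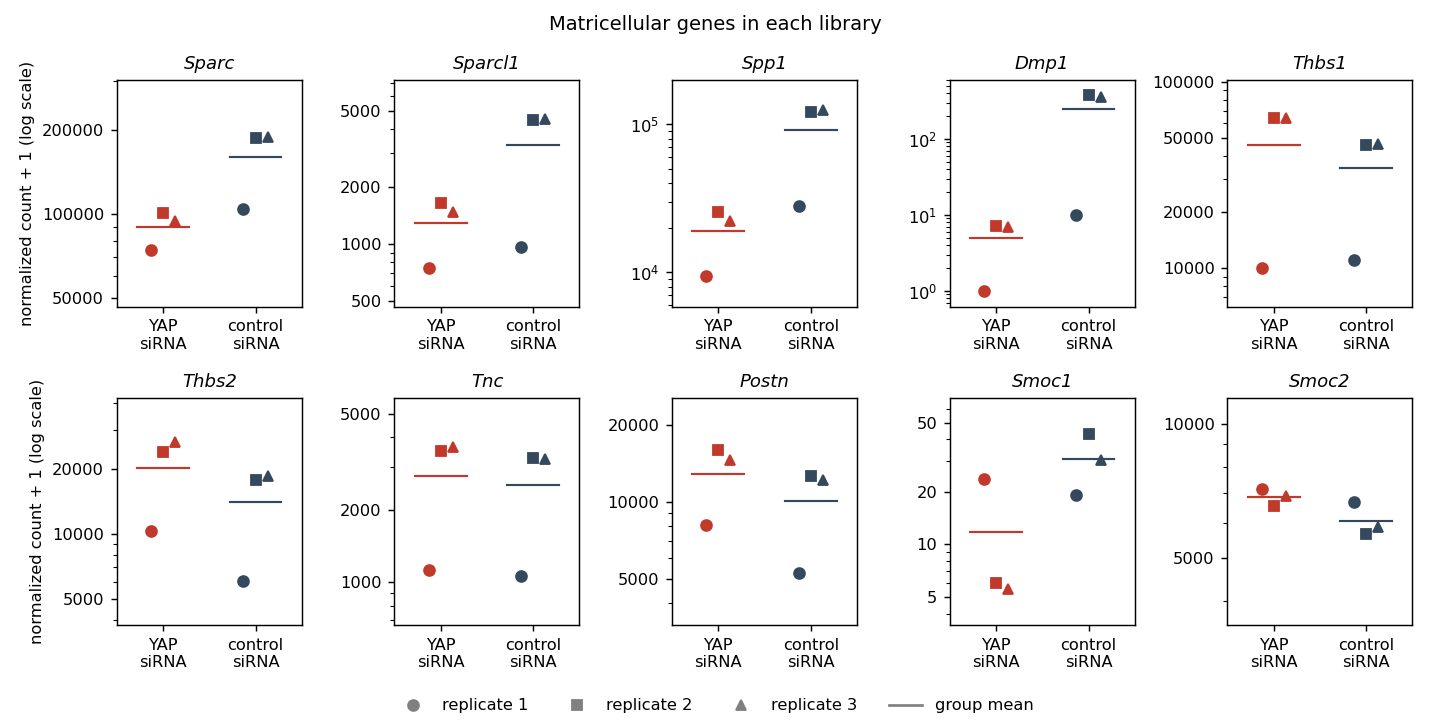
Normalized count + 1 on a log axis for each of the 10 genes, with YAP siRNA libraries in red and control siRNA libraries in dark blue. Symbols give the replicate number and bars the group mean. Only in the panels of Sparc, Spp1 and Dmp1 does every YAP siRNA library lie under every control siRNA library, and replicate 1 (circles) is the lowest of both groups in all panels but those of Smoc1 and Smoc2.

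Spp1 encodes osteopontin, a secreted phosphoprotein that binds integrins through an RGD sequence and CD44. It had 9416, 25599 and 22091 normalized counts in YAP siRNA replicates 1, 2 and 3, against 28139.5, 120626 and 124915 in control siRNA replicates 1, 2 and 3. Every YAP siRNA library was below every control siRNA library, although YAP siRNA replicate 2 and control siRNA replicate 1 lay close together. The level in YAP siRNA was 33.5%, 21.2% and 17.7% of that in control siRNA in the pairs of replicates 1, 2 and 3. The log2 difference was −2.11 (SE 0.155 with the block, 0.671 without). Spp1 took 0.0336% to 0.094% of all reads in genes in YAP siRNA libraries and 0.0985% to 0.451% in control siRNA libraries.

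Dmp1 encodes dentin matrix protein 1, an acidic phosphoprotein of bone and dentin. It had 0, 6.06 and 6.03 normalized counts in YAP siRNA replicates 1, 2 and 3, from 0, 6 and 4 reads. It had 9.10, 375 and 357 normalized counts in control siRNA replicates 1, 2 and 3, from 6, 481 and 775 reads. Dmp1 was thus near the limit of detection in all 3 YAP siRNA libraries and in control siRNA replicate 1, and well above it only in control siRNA replicates 2 and 3. In the pairs of replicates 2 and 3 the level in YAP siRNA was 1.61% and 1.69% of that in control siRNA, while the pair of replicate 1 rests on 0 and 6 reads. The log2 difference was −4.91 (SE 0.572 with the block, 1.59 without) and depends on the added count of 1. Over all alternatives it ranged from −6.64 to −3.35. Dmp1 passed the filter on low values through the control siRNA libraries.

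Sparc encodes osteonectin, a collagen-binding glycoprotein. It had 74282, 100288 and 93840.0 normalized counts in YAP siRNA replicates 1, 2 and 3, against 104044, 187349 and 189527 in control siRNA replicates 1, 2 and 3. The highest YAP siRNA value lay just under the lowest control siRNA value. The level in YAP siRNA was 71.4%, 53.5% and 49.5% of that in control siRNA in the 3 pairs, a log2 difference of −0.80 (SE 0.117 with the block, 0.276 without).

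Sparcl1 encodes hevin, the SPARC homologue with a long acidic amino-terminal extension. It had 750.1, 1635 and 1471 normalized counts in YAP siRNA replicates 1, 2 and 3, against 967, 4470.5 and 4561 in control siRNA replicates 1, 2 and 3. The groups overlapped through control siRNA replicate 1, which lay below YAP siRNA replicates 2 and 3. Within pairs the level in YAP siRNA was 77.6%, 36.6% and 32.2% of that in control siRNA, a log2 difference of −1.15 (SE 0.214 with the block, 0.657 without). For Spp1, Sparc and Sparcl1 the difference was smallest in the pair of replicate 1. For Dmp1 this held only on the log2 scale with the added count of 1, where that pair rests on 0 and 6 reads. Without that pair the log2 differences of Spp1, Dmp1, Sparc and Sparcl1 were −2.37, −5.70, −0.96 and −1.54.

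**Figure D2:**
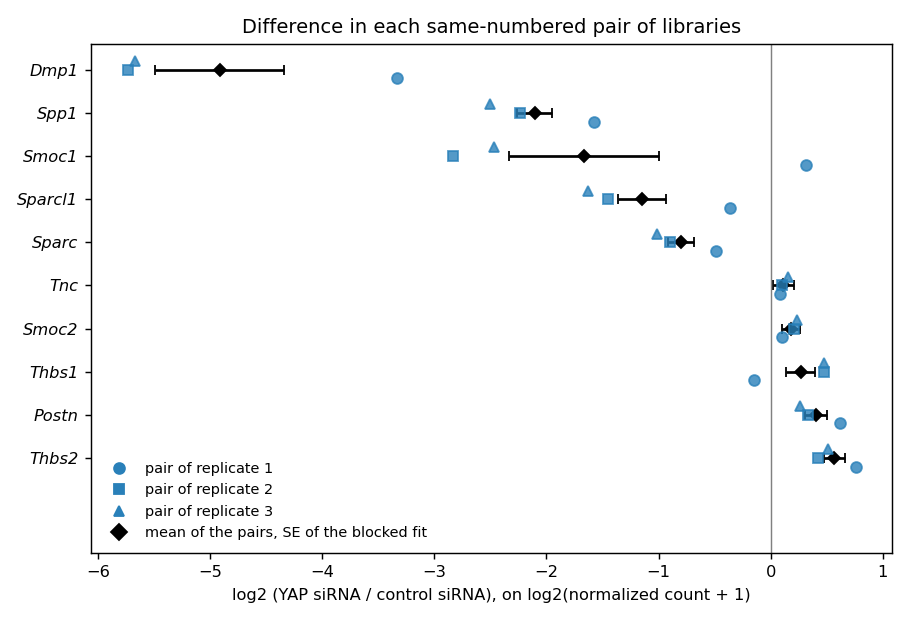
Log2 ratio of YAP siRNA to control siRNA on the log2(normalized count + 1) scale, for each same-numbered pair of libraries (blue symbols) and as the mean of the pairs with its SE from the blocked fit (black). In Dmp1, Spp1, Smoc1, Sparcl1 and Sparc the pair of replicate 1 lies to the right of the other 2, and Tnc and Smoc2 lie close to 0.

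Non-overlap of the groups separated 3 of the 10 genes, Sparc, Spp1 and Dmp1, all lower in YAP siRNA, and 0 were higher without overlap. Over all tested genes 9.49% were lower and 9.47% higher without overlap. The other 7 overlapped. In Thbs1, Thbs2, Tnc and Postn, YAP siRNA replicate 1 lay below control siRNA replicates 2 and 3, and in Smoc2 only YAP siRNA replicate 2 lay below a control siRNA library, replicate 1. Replicates 2 and 3 averaged 6.41 times replicate 1 for Thbs1 in YAP siRNA and 4.17 times in control siRNA. For Spp1 these ratios were 2.53 in YAP siRNA and 4.36 in control siRNA, and for Sparcl1 2.07 and 4.67. For Smoc2 they were 0.94 and 0.864, so that Smoc2 was slightly lower in replicates 2 and 3 in both groups. The cause of the difference between replicate numbers was not tested.

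Thbs2 encodes thrombospondin-2, which like thrombospondin-1 restrains blood vessel growth. It had 10297, 23804 and 26395 normalized counts in YAP siRNA replicates 1, 2 and 3, against 6076, 17746 and 18484 in control siRNA replicates 1, 2 and 3. Each YAP siRNA library was above its same-numbered control siRNA library, at 169%, 134% and 143% of it. The log2 difference was 0.57 (SE 0.0929 with the block, 0.546 without). In the unblocked fit it was 0.041 (SE 0.417) when control siRNA replicate 1 was left out and 0.99 (SE 0.519) when YAP siRNA replicate 1 was left out.

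Postn encodes periostin, a fasciclin-domain protein that binds integrins and collagen. It had 8091, 15850.0 and 14569.8 normalized counts in YAP siRNA replicates 1, 2 and 3, against 5264, 12598 and 12181 in control siRNA replicates 1, 2 and 3. The YAP siRNA libraries were at 154%, 126% and 120% of their same-numbered control siRNA libraries, a log2 difference of 0.40 (SE 0.0957 with the block, 0.417 without). For Thbs2 and Postn the pair of replicate 1 showed the largest of the 3 ratios, as it did for Spp1, Sparc and Sparcl1. The difference from control siRNA was thus largest in that pair for Thbs2 and Postn, and smallest for Spp1, Sparc and Sparcl1. Without control siRNA replicate 1 and without the block, the log2 difference of Postn was −0.0083.

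Thbs1 encodes thrombospondin-1, which activates latent TGF-beta and binds CD47 and CD36. It had 9981, 63837 and 64104 normalized counts in YAP siRNA replicates 1, 2 and 3, against 11049, 46032 and 46171 in control siRNA replicates 1, 2 and 3. In the pairs of replicates 2 and 3 YAP siRNA was at 139% of control siRNA, and in the pair of replicate 1 at 90.3%. The log2 difference was 0.27 over all pairs (SE 0.128 with the block) and 0.47 without the pair of replicate 1. In the unblocked fit its sign turned when control siRNA replicate 1 (−0.42), YAP siRNA replicate 2 (−0.18) or YAP siRNA replicate 3 (−0.18) was left out, and it was 1.16 when YAP siRNA replicate 1 was left out.

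Tnc encodes tenascin-C, a large hexameric glycoprotein induced in injured nerve and tumour stroma. It had 1129, 3499.8 and 3618 normalized counts in YAP siRNA replicates 1, 2 and 3, against 1064, 3271 and 3245 in control siRNA replicates 1, 2 and 3. The YAP siRNA libraries stood at 106%, 107% and 111% of their same-numbered control siRNA libraries, a log2 difference of 0.11 (SE 0.0908 with the block). In the unblocked fit the Tnc difference was −0.42 when control siRNA replicate 1 was left out, −0.15 for YAP siRNA replicate 2, −0.17 for YAP siRNA replicate 3 and 0.67 for YAP siRNA replicate 1.

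Smoc1 and Smoc2 encode modular calcium-binding proteins that share the follistatin-like and extracellular calcium-binding domains of SPARC. Smoc2 had 7141, 6529 and 6895 normalized counts in YAP siRNA replicates 1, 2 and 3, against 6666, 5662 and 5861 in control siRNA replicates 1, 2 and 3, a log2 difference of 0.18 (SE 0.0834 with the block). Smoc1 had 22.8, 5.05 and 4.52 normalized counts in YAP siRNA replicates 1, 2 and 3, from 19, 5 and 3 reads. It had 18.2, 42.1 and 29.5 in control siRNA replicates 1, 2 and 3, from 12, 54 and 64 reads. Smoc1 was lower in YAP siRNA in replicates 2 and 3 and slightly higher in replicate 1. Its log2 difference was −1.66 (SE 0.668 with the block) with all pairs and −2.65 without the pair of replicate 1.

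Levels were compared between the 10 genes as normalized counts per kilobase (kb) of the longest protein-coding transcript of each gene in GENCODE M21, which is built on another assembly than the files. In YAP siRNA, Sparc led with 38900.0 ± 5888 per kb (SD, n = 3), followed by Spp1 with 12631 ± 5649, Thbs1 with 7861 ± 5330.2, Postn with 4005 ± 1298, Thbs2 with 3421 ± 1466 and Smoc2 with 2420.5 ± 109. Sparcl1 with 466 ± 171 and Tnc with 387 ± 198 came next, ahead of Smoc1 with 3.09 ± 2.98 and Dmp1 with 1.46 ± 1.26 per kb. In control siRNA, Sparc had 69698.5 ± 21190.1 per kb and Spp1 60535 ± 36282 (SD, n = 3), ahead of Thbs1 with 5885 ± 3461, Postn with 3125 ± 1285, Thbs2 with 2392 ± 1181 and Smoc2 with 2140.8 ± 188. Sparcl1 had 1208 ± 743, Tnc 356 ± 178, Dmp1 89.4 ± 74.6 and Smoc1 8.56 ± 3.42 per kb. The order was the same in both groups down to Tnc.

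Among 11625 tested genes with a length, Sparc ranked 6 and Spp1 36 per kb in YAP siRNA, while in control siRNA Sparc ranked 4 and Spp1 5. Thbs1 ranked 81 in YAP siRNA and 137 in control siRNA, and Dmp1 11583 and 8713. Not every step of the order held in each library. Sparc was above Spp1 in 3 of 3 YAP siRNA libraries but in 2 of 3 control siRNA libraries, since control siRNA replicate 3 had 82403 per kb of Sparc and 82890 per kb of Spp1. Thbs1 was above Postn in 2 of 3 YAP siRNA libraries and 3 of 3 control siRNA libraries, and Thbs2 was above Smoc2 in 2 of 3 libraries of each group. Smoc1 was above Dmp1 in 1 of 3 YAP siRNA libraries, and Dmp1 above Smoc1 in 2 of 3 control siRNA libraries.

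**Figure D3:**
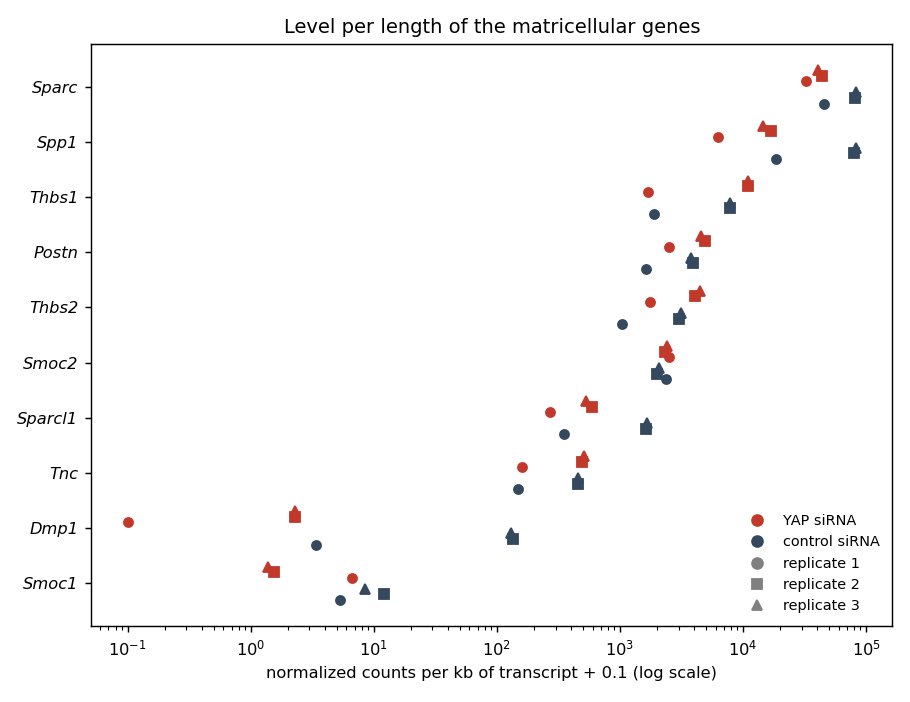
Normalized counts per kb of transcript on a log axis for the 10 genes, YAP siRNA (red) above control siRNA (dark blue) in each row, with symbols for the replicate number. Among symbols of the same library, those of Sparc and Spp1 lie furthest to the right in both groups. The YAP siRNA symbols of Sparc, Spp1, Sparcl1 and Dmp1 lie left of the same-numbered control siRNA symbols.

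Sparcl1, Dmp1 and Spp1 lie in a single interval of mouse chromosome 5 in the RefSeq annotation of GRCm38.p6, in the order Sparcl1, Dspp, Dmp1, Ibsp, Mepe, Spp1 among protein-coding genes listed in the table. The 3 SIBLING genes between or beside them, whose products belong to tooth and bone matrix, were barely detected. Ibsp was listed at 0 in all YAP siRNA libraries and at 6.07, 1.56 and 2.77 normalized counts in control siRNA replicates 1, 2 and 3. Dspp was at 18.0 in YAP siRNA replicate 1, at 12.1 in control siRNA replicate 1 and at 0 in the other 4 libraries, and Mepe did not exceed 1.51 in YAP siRNA or 3.23 in control siRNA. On the flanks, Nudt9, an ADP-ribose hydrolase gene, averaged 2870.0 ± 284 in YAP siRNA and 3730.0 ± 497 in control siRNA (SD, n = 3). Pkd2, the polycystin-2 gene next to Spp1, averaged 4327 ± 191 in YAP siRNA and 3634 ± 548 in control siRNA (SD, n = 3). Hsd17b11 averaged 926 ± 257 in YAP siRNA and 775 ± 137 in control siRNA (SD, n = 3). In the blocked fit over all genes Nudt9 was called lower (log2 difference −0.37, limma adjusted p = 0.0235), while Pkd2 (limma adjusted p = 0.0999) and Hsd17b11 (limma adjusted p = 0.225) were not called. These neighbours were looked at after the values of the SIBLING genes were known.

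**Figure D4:**
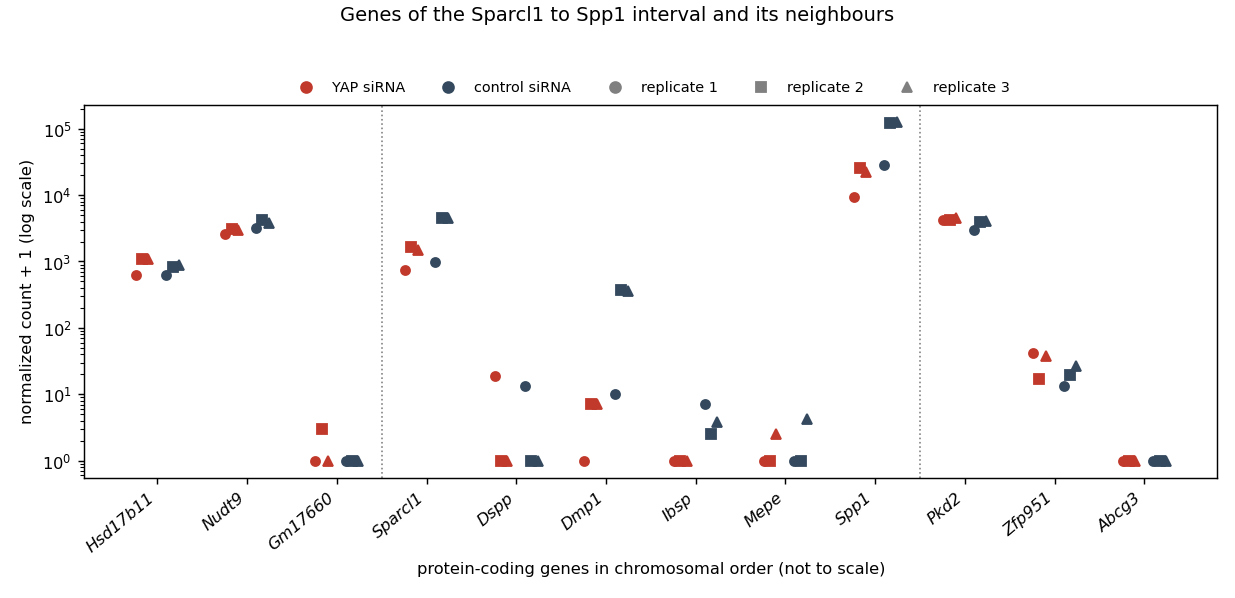
Normalized count + 1 on a log axis for the genes from Sparcl1 to Spp1 (between the dotted lines) and the 3 nearest listed protein-coding genes on each side, in chromosomal order, with YAP siRNA in red and control siRNA in dark blue. Sparcl1, Dmp1 and Spp1 show the red symbols below the blue ones of the same replicate, whereas Nudt9, Hsd17b11 and Pkd2 differ little on this scale.

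RefSeq promoter windows were at hand for 6 of the 10 genes (Sparc, Spp1, Dmp1, Thbs2, Tnc and Postn; 10 windows). The 250 bases before a start are shown for the 3 genes whose groups did not overlap, because all 3 were lower in YAP siRNA and Spp1 and Dmp1 belong to the same gene family. The sequences are those of RefSeq on GRCm38.p6, read 5′ to 3′ on the strand of the gene. In the Spp1 and Dmp1 windows, capitals mark the RUNX letters ACCACA and the 2 runs of at least 9 letters that both windows share. Spp1 and Dmp1 each have 2 windows, and the one shown was picked because it holds the RUNX letters. Shared runs were sought between the 2 windows shown. The other window of each gene holds none of the motifs searched and is not shown. The Sparc window holds none of the motifs searched and has no capitals. The positions are chr5:104434861-104435110 (plus strand) for Spp1, chr5:104202367-104202616 (plus strand) for Dmp1 and chr11:55420081-55420330 (minus strand) for Sparc.
Spp1: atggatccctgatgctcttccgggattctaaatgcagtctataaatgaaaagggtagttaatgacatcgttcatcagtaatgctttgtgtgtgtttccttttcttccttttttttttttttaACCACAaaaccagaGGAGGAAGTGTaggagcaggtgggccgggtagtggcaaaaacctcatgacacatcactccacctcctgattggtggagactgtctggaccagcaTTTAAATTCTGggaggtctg
Dmp1: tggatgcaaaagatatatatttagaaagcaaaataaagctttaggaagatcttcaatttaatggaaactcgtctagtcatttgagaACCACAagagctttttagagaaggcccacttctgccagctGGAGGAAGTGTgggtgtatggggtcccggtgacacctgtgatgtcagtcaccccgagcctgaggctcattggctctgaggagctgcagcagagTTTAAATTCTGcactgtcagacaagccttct
Sparc: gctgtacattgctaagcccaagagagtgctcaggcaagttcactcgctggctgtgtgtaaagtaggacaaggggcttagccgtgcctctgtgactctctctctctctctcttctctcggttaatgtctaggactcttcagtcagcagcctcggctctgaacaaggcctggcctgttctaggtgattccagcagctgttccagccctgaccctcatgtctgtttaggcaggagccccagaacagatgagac

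Motifs of 3 factor families were searched on both strands of these 250 bases. The TEAD letters GGAATG were in 0 of the 10 windows, against 12.6% of all 32851 windows of that length. The AP-1 letters TGAGTCA were in 0 of the 10 windows, against 4.46% of all windows. The RUNX letters TGTGGT, shown above as their reverse complement, were in 2 of the 10 windows, against 14% of all windows. They begin, in the windows shown, 128 bases before the start of Spp1 and 164 bases before that of Dmp1, and overlap no other motif. A match describes letters only, and the absence of a match says only that they are not in this window.

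The Spp1 and Dmp1 windows also share the runs GGAGGAAGTGT and TTTAAATTCTG, each of 11 letters and in the same order. The first begins 114 bases before the start of Spp1 and 124 before that of Dmp1, and is in 0.137% of all windows on either strand. The second begins 20 bases before the start of Spp1 and 31 before that of Dmp1, and is in 0.0396% of all windows. Spp1 and Dmp1 were the only genes with both runs in a window, and 0 of the 2 windows of Ibsp and Mepe held either. The runs were found by comparing these 2 windows, so these shares describe how rare the letters are and are no test.

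The genes whose level followed that of Sparc and of Dmp1 most closely over the 6 libraries were found by Pearson's r of log2(normalized count + 1) among 11225 genes with a mean of at least 50. For Sparc they were Fut8, Unc13a, Plxna4, Ncoa1 and Adamts7, with r between 0.998 and 0.999. For Dmp1 they were Ext1, Plxna4, Notch4, Spp1 and Pou6f1, with r between 0.9977 and 0.9995. Dmp1 was well above the limit of detection only in control siRNA replicates 2 and 3, so its r leans on those libraries. The 6 libraries share the offset of replicate 1 and the 2 siRNAs, so these values describe a common pattern. Sparc and Dmp1 were chosen for being lower in YAP siRNA, so genes picked for likeness to them are lower there by construction. Plxna4, a semaphorin co-receptor, was named for both and had 526.5, 804 and 779 normalized counts in YAP siRNA replicates 1, 2 and 3, against 895, 2051 and 2037 in control siRNA replicates 1, 2 and 3. Fut8, the core fucosyltransferase, had 608, 1026 and 928 in YAP siRNA against 1038, 2999 and 3075 in control siRNA. Like Spp1, both were lowest in YAP siRNA replicate 1 and highest in control siRNA replicates 2 and 3.

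Other genes that act with matricellular proteins were taken from 6 lists of 119 genes in all, of which 90 were tested. Of these, 28 fell and 8 rose in the blocked fit, beside 8.96% lower and 8.32% higher among all genes. Without the block limma called 0 of the 90. Without replicate 2 of both groups 9 of the 90 fell and 2 rose, without replicate 3 18 and 4, without replicate 1 49 and 13, and 0 passed in limma without a trend. The median log2 difference over the 90 genes was −0.31. The plot of the 6 lists shows each tested gene.

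**Figure D5:**
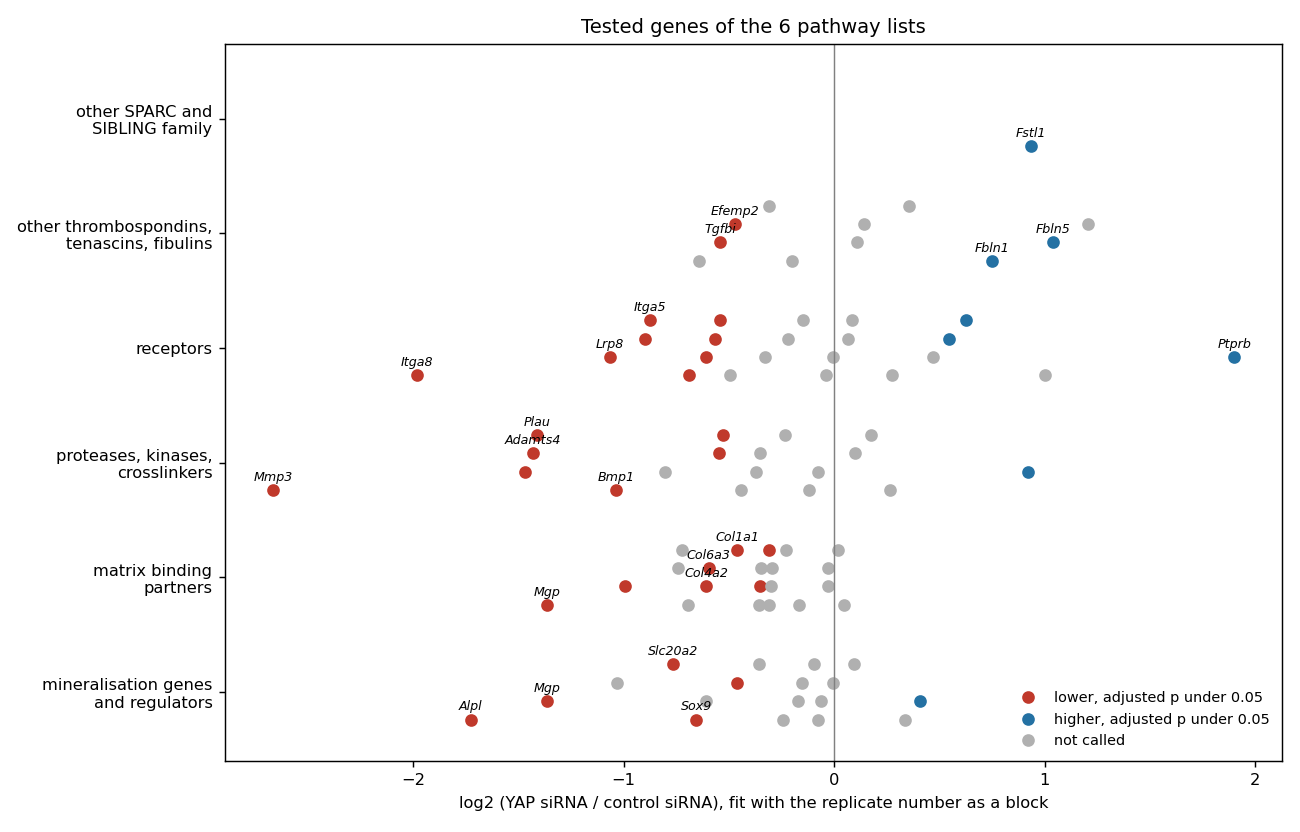
Log2 ratio of YAP siRNA to control siRNA from the blocked fit for the tested genes of the 6 lists, 1 point per gene, spread vertically for legibility. Red points were called lower and blue points higher at an adjusted p under 0.05, and grey points were not called. In the list of matrix binding partners, 19 of 21 points lie left of 0.

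Among the other SPARC and SIBLING family genes only Fstl1, which encodes the SPARC-related follistatin-like protein 1, was tested, and it rose. Fstl1 had 9282 (replicate 1), 15447 (replicate 2) and 15759 (replicate 3) normalized counts in YAP siRNA, against 5357, 8361 and 7230.4 in control siRNA replicates 1, 2 and 3. Every YAP siRNA library was above every control siRNA library (log2 difference 0.93, SE 0.0928, limma adjusted p = 0.00153 with the block). Of the members of that family, Sparc and Sparcl1 were lower in all 3 pairs and Smoc2 was higher in all 3. Sparc was among the genes that chose the set, so nothing is read from its contrast with Fstl1. The testican genes Spock1, Spock2 and Spock3 and the SIBLING genes Ibsp, Mepe and Dspp had a mean under 10.

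Among the other thrombospondins, tenascins, periostin relatives and fibulins 2 of 11 tested genes fell and 2 rose, with a median log2 difference of 0.11. Tgfbi, which encodes the closest relative of periostin, fell to 4168 ± 1585 normalized counts in YAP siRNA, against 6080.2 ± 2342 in control siRNA (SD over 3 libraries; with the block, limma gave an adjusted p = 0.00546). Tgfbi was lower in YAP siRNA in all 3 pairs, and Postn, with which it shares fasciclin domains, was higher in all 3. Postn is described with no test, so nothing is read from this contrast. Among the fibulin genes, Efemp2 also fell (log2 difference −0.47, SE 0.113), whereas Fbln5 and Fbln1 rose, with log2 differences of 1.04 and 0.75. When the replicate 2 pair was left out, 0 of the 11 passed.

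Of 22 tested receptor genes, 8 fell and 3 rose, and the 8 include the integrin subunit genes Itga3, Itga5, Itga6 and Itga8. Another integrin alpha subunit gene, Itga4, was among the 3 that rose (log2 difference 0.62, limma adjusted p = 0.0463 with the block), as were Sdc4 and Ptprb. Without the replicate 2 pair (limma adjusted p = 0.298) or the replicate 3 pair (limma adjusted p = 0.16) Itga4 did not pass. Nor did it pass in DESeq2 with the block (adjusted p = 0.0548). Itga3, Itga4, Itga6 and Sdc4 were named after their values were seen. The median log2 difference over the 22 was −0.18. Itga8, whose integrin with beta-1 binds osteopontin and tenascin-C, had 89.0, 224 and 332 normalized counts in YAP siRNA replicates 1, 2 and 3, against 223, 1250.3 and 1470.3 in control siRNA replicates 1, 2 and 3 (log2 difference −1.98, SE 0.219, limma adjusted p = 0.00186 with the block). Within each pair the YAP siRNA library was lower, although control siRNA replicate 1 lay between YAP siRNA replicates 1 and 2, and so the groups overlapped. Itga5, the fibronectin receptor subunit, fell to 6841 ± 210 in YAP siRNA, against 12562 ± 1067 in control siRNA (SD over 3 libraries; with the block, limma gave an adjusted p = 0.00171). Lrp8, a reelin receptor that also binds thrombospondin-1, fell by 1.07 on the log2 scale.

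Ptprb, a receptor tyrosine phosphatase gene, moved the other way, with 1427, 4498 and 4844 normalized counts in YAP siRNA replicates 1, 2 and 3 against 684, 941 and 926 in control siRNA replicates 1, 2 and 3. It rose by 1.90 on the log2 scale (SE 0.226, limma adjusted p = 0.00226 with the block). Ptprz1, the other receptor tyrosine phosphatase gene of the list, had a mean under 10. Whether the product of Ptprb binds a matricellular protein was not tested. Cd44 had a log2 difference of 0.067 (SE 0.0863), Cd47 one of −0.041 (SE 0.103) and Itgav one of −0.15 (SE 0.11), none of which passed with all pairs. Cd44 and Itgav are receptors or receptor subunits for osteopontin, and Cd47 for thrombospondin-1. Without the replicate 1 pair Itgav passed (limma adjusted p = 0.000443), in a fit that called 21.8% of all tested genes lower and 21.9% higher. These 3 were named after their values were seen. The receptor counts without replicate 2 of both groups were 3 lower and 1 higher.

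Of 18 tested proteases, kinases and crosslinkers that act on these proteins, 7 fell and 1 rose, with a median log2 difference of −0.41. Mmp3, a stromelysin that cleaves osteopontin and SPARC, had 224, 158 and 152 normalized counts in YAP siRNA replicates 1, 2 and 3, against 539, 1553 and 1664 in control siRNA replicates 1, 2 and 3 (log2 difference −2.66, SE 0.366, limma adjusted p = 0.00368 with the block). Bmp1, the procollagen C-proteinase that also processes DMP1, had 4859, 5456 and 5317 in YAP siRNA replicates 1, 2 and 3, against 6103, 14112 and 14151 in control siRNA replicates 1, 2 and 3. Its groups did not overlap (log2 difference −1.04, SE 0.19, limma adjusted p = 0.00994 with the block). Plau, which encodes urokinase, and Adamts4, a proteoglycan-cleaving metalloproteinase, had log2 differences of −1.41 and −1.43 and both fell. When the replicate 2 pair was left out, Bmp1 did not pass (limma adjusted p = 0.0709) and the counts were 3 lower and 0 higher.

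Matrix proteins that bind the matricellular ones fell where they passed. Of 21 tested, 7 fell and 0 rose, 19 had a log2 difference below 0, and the median was −0.35. Mgp, the matrix Gla protein that inhibits calcification, had 284, 4642 and 4663 normalized counts in YAP siRNA replicates 1, 2 and 3, against 942, 9842 and 11280.0 in control siRNA replicates 1, 2 and 3. Replicate 1 was far below replicates 2 and 3 in both groups, and within each pair YAP siRNA was lower (log2 difference −1.36, SE 0.127, limma adjusted p = 0.00127 with the block). Among the collagens, Col6a3 had a log2 difference of −0.60, Col4a2 one of −0.61 and Col1a1 one of −0.46, and all 3 fell. Col1a1 was not called by DESeq2 with the same block (adjusted p = 0.419), nor by limma when the replicate 3 pair was left out (adjusted p = 0.195). When the replicate 2 pair was left out, Mgp alone of the 7 passed.

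Mineralisation genes and their regulators were examined because Spp1 and Dmp1 are best known from bone. Of 18 tested, 5 fell and 1 rose, with a median log2 difference of −0.21. Besides Mgp, already counted above, the phosphate transporter gene Slc20a2 fell to 1344 ± 167 normalized counts in YAP siRNA, against 2273 ± 22.5 in control siRNA (SD over 3 libraries; with the block, limma gave an adjusted p = 0.00417). The transcription factor gene Sox9 fell by 0.66 on the log2 scale, and Alpl, the tissue-nonspecific phosphatase gene, fell by 1.73. Sox9 also passed when the replicate 2 pair (limma adjusted p = 0.0426) or the replicate 3 pair was left out, whereas Alpl passed in neither case (limma adjusted p = 0.202 and 0.187). The gene that rose was Runx2, a transcription factor that directs bone formation, at 1533, 2733 and 3031 normalized counts in YAP siRNA replicates 1, 2 and 3, against 1340, 1868 and 2174 in control siRNA replicates 1, 2 and 3. It was named after its value was seen (log2 difference 0.41, SE 0.106, limma adjusted p = 0.0337 with the block, 0.326 without the replicate 2 pair and 0.138 without the replicate 3 pair). Sp7 and Bglap, which mark osteoblasts, had a mean under 10, and Bglap2 was at 0 in all 6 libraries. Without replicate 2 of both groups 3 of the 18 fell and 0 rose.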

How the data were processed

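Poly(A) RNA of 6 libraries (3 YAP siRNA, 3 control siRNA) was sequenced after ligation to directional adapters, per the labels' protocols. The submitters' processing notes name build mm9 and the tools DESeq 1.14.0, HTSeq 0.6.1 and TopHat2 2.0.9. The sources used here do not give the annotation, the strand setting of the counting or its treatment of shared reads, which leaves overlapping genes uncertain. The table deposited by the authors holds a normalized signal, in which each library's read counts appear scaled by a constant. Dividing by the smallest step of each library (0.461 to 1.52 per read) gave back reads, and 100% of values came out whole to within 0.01 reads.

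limma 3.58.1 (R 4.3.3, mean-variance trend, two-sided) was run on log2(value + 1) for 12820 genes averaging 10 or more, with Benjamini-Hochberg adjustment over all of them. The 2 groups carry the same replicate numbers, which the labels do not explain. The deviations of same-numbered libraries correlated at 0.788, 0.705 and 0.532. YAP siRNA 3 with control siRNA 2 gave 0.552 and YAP siRNA 2 with control siRNA 3 gave 0.516, so the data set replicate 1 apart but do not tell replicates 2 and 3 from each other. The numbers were taken as pairs because every same-numbered correlation was clearly positive, and a fit with the replicate block stands beside the one without. Libraries of a group differed by more than sampling noise (chi-square per degree of freedom 8.04 or more). Alternatives included edgeR 4.0.16 and DESeq2 1.42.0 on the recovered reads. The procedure was also run on simulated counts. These were built with same-numbered libraries as pairs, so they cannot test the pairing, and no result is drawn from them.

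Members, lists and tests were chosen with earlier results of these data known. Genes named by rule were the 10 members, Yap1, up to 4 genes per list passing the blocked fit with the smallest p, and the 5 genes most like Sparc and most like Dmp1. Transcript lengths (GENCODE M21) and promoters (RefSeq, GRCm38.p6) come from another assembly than the files. Some Schwann cell markers, and the sum over that list, are not reported here.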

Additional observations from a re-analysis of the deposited data

How the results depend on the processing

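The log2 differences of Sparc, Spp1, Dmp1, Sparcl1 and Smoc1 stayed below 0 and those of Thbs2 and Smoc2 above 0 in the alternatives that tested them. Thbs2 was 0.041 without control siRNA replicate 1 and 0.99 without YAP siRNA replicate 1. Smoc1 was not tested at a mean of at least 50, and was −2.65 without replicate 1 of both groups. With libraries left out Postn ranged from −0.0083 to 0.71 (0.7063 without YAP siRNA replicate 1), negative without control siRNA replicate 1. Thbs1 and Tnc were both −0.42 there, were negative too without YAP siRNA replicate 2 (−0.18 and −0.15) or 3 (−0.18 and −0.17), and were 1.16 and 0.67 without YAP siRNA replicate 1. Of the 10 genes, 5 were below 0 with all libraries and 5 to 8 with libraries left out, 8 without control siRNA replicate 1. The cause was not tested. Few reads limit the precision for Dmp1 and Smoc1.

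Without the block 0 genes were called higher and 0 lower, in the lists as well. With the replicate block 1067 were higher and 1149 lower (8 and 28 in the lists). The replicate block without a trend gave 12 and 18, and after rescaling to one total 1225 and 1027 (8 and 27). DESeq2 gave 330.0 and 399 (2 and 8) without the block and 1182 and 1308 (7 and 28) with it. edgeR with the block gave 1190.0 and 1289 (8 and 29). With libraries left out and no block, counts ranged from 0 to 1912 higher and from 0 to 2106 lower (0 to 12 and 0 to 45). Without control siRNA replicate 1 alone they were 192 and 305 (0 and 6), and without YAP siRNA replicate 1 alone 3 and 5. With the replicate block they were 123 and 177 (2 and 9) without replicate 2 of both groups, 538 and 590.0 (4 and 18) without replicate 3, and 2804 and 2792 (13 and 49) without replicate 1. These fits on 2 pairs have 1 residual degree of freedom and lean on the spread shared across genes. Of the 36 list genes called with the block, 11 kept the call without replicate 2, 22 without replicate 3 and 36 without replicate 1.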
